A study of Mus musculus with 12 samples.

Results

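The set comprised 10 genes that act in or mark entry into mitosis: the cyclins Ccnb1, Ccnb2 and Ccna2, the kinases Cdk1, Plk1, Aurka and Melk, the phosphatase Cdc25c, the transcription factor Foxm1 and the proliferation marker Mki67. They were chosen by name, and their probes were all those whose RefSeq accession maps to one of these symbols. This gave 10 of the 17305 named genes on the array and 15 of its 41174 probes. Ccnb1 had 3 probes, Cdk1, Cdc25c and Mki67 had 2 each, and the other 6 genes had 1 each. A gene with several probes is given by its brightest probe, and that probe was well above background on all 12 arrays for each of the 10 genes.

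Entry into mitosis depends on Cdk1, a kinase that is active only when bound to a cyclin. Ccna2 (cyclin A2) pairs with it before mitosis and Ccnb1 and Ccnb2 (cyclins B1 and B2) at the transition itself, the phosphatase Cdc25c removes inhibitory phosphates from Cdk1, and the kinases Plk1 and Aurka feed into that switch and build the spindle. Foxm1 is a transcription factor for many of these genes, Melk is a kinase made mainly in dividing cells, and Mki67 encodes Ki-67, a protein coating mitotic chromosomes that is widely used as a marker of cycling cells. After DNA damage the kinase Atm signals to p53, whose target Cdkn1a (p21) inhibits cyclin-dependent kinases.

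RNA came from cultured mouse embryonic fibroblasts, primary connective tissue cells prepared from embryos, and each sample was read on 1 single-colour array. Each of 4 conditions had 3 samples: Atm-KO cells irradiated with 4.32 Gy (IR-KO) or not (NonIR-KO), and Atm-WT cells irradiated with 4.32 Gy (IR-WT) or not (NonIR-WT), with cultures kept for 72 h. The knockout allele, the strain, the embryos' age and the number of lines are not given in the sources used here. The labels do not say that samples of a group came from separate cultures, so the p-values cover the spread among these samples only, some of which may be technical.

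The brightest Atm probe checked the genotype labels. Its log2 signal over the 75th percentile of the array read -5.66, -7.50 and -6.48 in irradiated Atm-KO cells, against -2.87, -4.60 and -4.60 in irradiated Atm-WT cells. Nonirradiated Atm-KO cells gave -5.43, -7.01 and -6.20, against -3.55, -5.65 and -4.25 in nonirradiated Atm-WT cells. The difference was -2.52 ± 0.658 in irradiated cells (SE; adjusted p = 0.225, or 0.0235 with the sample number as a block, although samples of one number lie on different slides in the 2 genotypes) and -1.73 ± 0.658 in nonirradiated cells (adjusted p = 0.476). With Atm-KO values raised to the lowest signal well above background, the nonirradiated Atm-KO mean was 1.96-fold below the nonirradiated Atm-WT mean. That figure leaves out the spread among samples, and nonirradiated Atm-WT sample 2 was itself not well above background. Atm was well above background on 1 of 6 Atm-KO arrays and on 5 of 6 Atm-WT arrays. The irradiated groups did not overlap, the nonirradiated groups did, and no source used here places this probe relative to the deleted part. The 75th percentile of processed signal ran from 379 to 757 over the 12 arrays, 56.0% to 65.0% of probes were well above background, and no spot was saturated. Slide 1 held Atm-WT samples 1 and 2, slide 2 held Atm-WT sample 3 and Atm-KO sample 1, and slide 3 held Atm-KO samples 2 and 3, so both samples of a number within a genotype shared a slide. Nonirradiated samples always lay at positions 1 and 3 of a slide and irradiated ones at positions 2 and 4, so that position and irradiation cannot be told apart. All 10 fibroblast markers were well above background on every array.

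The promoters of these genes are shown first, because genes of this class are known for a shared promoter layout. A link between that layout and the irradiation values was not tested. In mouse and human cells the factor NF-Y binds CCAAT boxes, and complexes built on MuvB bind the cell cycle genes homology region (CHR), a short element with the letters TTTGAA or TTCGAA. RefSeq's GRCm38.p6 promoter table held 7 of the 10 genes: Ccnb1, Ccnb2, Cdk1, Plk1, Aurka, Melk and Mki67. The windows below run 5′ to 3′ from 150 bases before to 30 bases after the RefSeq start of 6 of them, with CCAAT (or ATTGG, its other strand), TTTGAA and TTTAAA in capitals.
Ccnb1, chr13:100786457-100786636, minus strand: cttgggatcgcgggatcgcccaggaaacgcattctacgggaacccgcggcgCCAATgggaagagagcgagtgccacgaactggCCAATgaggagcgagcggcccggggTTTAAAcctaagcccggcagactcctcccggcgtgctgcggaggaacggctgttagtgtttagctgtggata
Ccnb2, chr9:70421525-70421704, minus strand: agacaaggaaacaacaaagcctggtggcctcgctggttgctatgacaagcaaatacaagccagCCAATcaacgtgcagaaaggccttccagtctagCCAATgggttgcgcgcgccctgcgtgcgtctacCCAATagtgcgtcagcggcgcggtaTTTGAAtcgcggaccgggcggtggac
Cdk1, chr10:69352883-69353062, minus strand: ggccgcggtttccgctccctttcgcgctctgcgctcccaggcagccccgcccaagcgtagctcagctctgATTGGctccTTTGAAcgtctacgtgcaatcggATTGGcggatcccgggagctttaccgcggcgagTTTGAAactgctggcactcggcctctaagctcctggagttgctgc
Plk1, chr7:122159285-122159464, plus strand: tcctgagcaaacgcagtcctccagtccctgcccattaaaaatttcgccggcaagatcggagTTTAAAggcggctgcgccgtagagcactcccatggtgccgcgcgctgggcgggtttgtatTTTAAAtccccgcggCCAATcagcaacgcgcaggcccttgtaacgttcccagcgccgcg
Aurka, chr2:172370541-172370720, minus strand: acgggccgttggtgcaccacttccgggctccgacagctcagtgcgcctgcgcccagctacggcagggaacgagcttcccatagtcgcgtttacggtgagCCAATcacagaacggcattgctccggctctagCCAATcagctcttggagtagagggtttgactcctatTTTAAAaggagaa
Melk, chr4:44300767-44300946, plus strand: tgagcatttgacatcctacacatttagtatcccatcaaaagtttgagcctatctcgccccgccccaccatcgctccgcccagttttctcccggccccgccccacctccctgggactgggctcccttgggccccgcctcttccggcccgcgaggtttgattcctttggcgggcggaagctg

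CCAAT, searched on both strands, was present in 6 of the 7 windows, the exception being Melk. It was present in 27.0% of all 32851 windows of that length. At least 2 CCAAT boxes stood in the windows of 4 genes, Ccnb1, Ccnb2, Cdk1 and Aurka, against 6.97% of all windows. From the start of one box to the start of the next the distance was 32 bases in Ccnb1, Cdk1 and Aurka, and 33 bases between each neighbouring pair of the 3 boxes of Ccnb2. The boxes of Cdk1 read on the opposite strand to the gene. CHR letters were in the windows of Ccnb2, Cdk1 and Mki67, 3 of 7, against 11.1% of all windows, and all 3 also held CCAAT, against 3.13%. In Ccnb2 and in Mki67 a CHR began 25 bases after the start of the last CCAAT box.

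The letters TTTAAA, looked for after the windows had been read, were in those of Ccnb1, Plk1 and Aurka, against 7.51% of all windows. E2F-type letters (TTCCCGC or else TTCGCGC, and TTGCCGC or else TTGGCGC, both strands) were in those of Ccnb1, Cdk1 and Mki67, against 6.54%. The E2F-type match of Ccnb1 overlaps its first CCAAT box. None of the 4 motif sets had a match in the Melk window. These matches are descriptions of letters and do not show that a factor binds there.

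**Figure D1:**
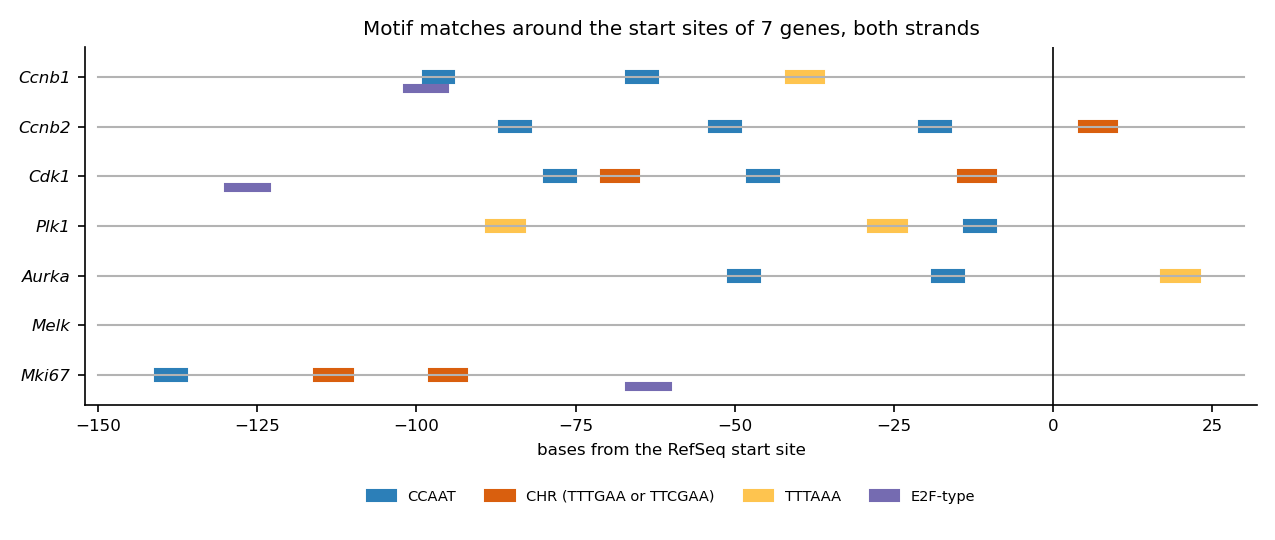
Matches to 4 motif sets in 7 promoter windows; the horizontal axis is the distance in bases from the RefSeq start site, each row is 1 gene, and each coloured block is a match on either strand. Ccnb1, Ccnb2, Cdk1 and Aurka show CCAAT boxes 32 or 33 bases apart, and the Melk row has no match.

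The comparison of irradiated with nonirradiated cells of one genotype asks how mitotic entry genes stand 72 h after the dose. All 10 genes had lower mean signal in irradiated than in nonirradiated cells of both genotypes, beside 54.7% of all features in Atm-KO and 53.2% in Atm-WT cells. In each of the 6 same-numbered pairs of samples, at least 9 of the 10 genes had the lower value in the irradiated sample. The genes share these samples, so they are not independent replicates of the irradiation. Differences of the group means ran from -1.30 (Ccnb2) to -0.37 (Mki67) on the log2 scale in Atm-KO cells and from -1.21 (Ccnb1) to -0.61 (Aurka) in Atm-WT cells. The median over the 10 genes was -1.13 in Atm-KO and -0.89 in Atm-WT cells, beside medians of -0.048 and -0.020 over all 18430 features tested.

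No member passed the threshold of 0.05 in limma's test without pairs after Benjamini-Hochberg adjustment over all features. That test called 0% of all features lower in irradiated Atm-KO cells and 0.0217% in irradiated Atm-WT cells. At an unadjusted p under 0.05, 9 members were lower in Atm-KO and 6 in Atm-WT cells, against 5.05% and 2.71% of all features. The labels do not say what a shared sample number means, and samples of a number within a genotype also shared a slide. Same-numbered samples deviated together, less clearly in Atm-KO cells. There samples 2 and 3 correlated across numbers (0.284 and 0.335) as well as sample 2 did with its own number (0.269). With each pair as a block limma called 6 members lower in irradiated Atm-KO cells, namely Ccnb1, Ccnb2, Ccna2, Cdk1, Cdc25c and Melk, where it called 0.863% of all features lower. In irradiated Atm-WT cells it called 4 lower, namely Ccnb1, Ccnb2, Ccna2 and Melk, where it called 0.624%. Fewer members were called when a pair was left out, which also leaves fewer arrays for every feature. With Atm-KO pair 1, 2 or 3 left out, 1 (Ccna2), 2 (Ccnb2 and Cdk1) and 0 members were called. Of all 18430 features 167, 340 and 19 were then called lower or higher, against 377 with all pairs. With any Atm-WT pair left out 0 members were called, the lowest adjusted p then being 0.0544 to 0.117. Features called were 89, 168 and 129 without Atm-WT pair 1, 2 or 3, against 417 with all pairs. With normexp background correction in the paired fit 0 members were called in either genotype, beside 52 features in Atm-KO and 118 in Atm-WT cells. The lowest adjusted p of a member was then 0.0709 in Atm-KO and 0.0795 in Atm-WT cells.

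Groups that did not overlap, with all irradiated values under all nonirradiated ones, were found for 6 members in Atm-KO cells (Ccnb2, Cdk1, Cdc25c, Foxm1, Plk1 and Melk), against 10.4% of all features. In Atm-WT cells they were found for 6 (Ccnb1, Ccnb2, Cdk1, Plk1, Aurka and Melk), against 5.7%. The irradiated value was the lower in all 3 pairs for 9 members in Atm-KO and 10 in Atm-WT cells, beside 23.4% and 25.7% of all features. In RNA from whole cultures, fewer cells in the mitotic phases and less of these transcripts per cell cannot be told apart.

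Other measures moved with irradiation too. The share of probes well above background was higher in the irradiated sample of all 6 pairs, at 64.2%, 61.2% and 61.7% in irradiated Atm-KO cells, against 59.9%, 58.7% and 59.5% in nonirradiated Atm-KO cells. It was 64.4%, 58.3% and 65.0% in irradiated Atm-WT cells, against 63.3%, 56.0% and 59.4% in nonirradiated Atm-WT cells. Markers of other cell types are given as their summed signal in multiples of the 75th percentile. The 6 epithelial markers summed to 4.54, 0.95 and 0.79 in irradiated Atm-KO cells, against 3.95, 0.61 and 0.52 in nonirradiated Atm-KO cells. They summed to 2.39, 1.11 and 0.92 in irradiated Atm-WT cells, against 1.82, 0.80 and 0.73 in nonirradiated Atm-WT cells, so the irradiated sum was the higher in all 6 pairs. The macrophage and blood markers, 9 of 10 of which are on the array, summed to 2.98, 3.99 and 2.51 in irradiated Atm-WT cells, against 5.71, 5.18 and 3.27 in nonirradiated Atm-WT cells, lower with irradiation in all 3 pairs. In Atm-KO cells they were lower in 1 of 3 pairs. The skeletal muscle sum was higher with irradiation in 5 of 6 pairs and the endothelial sum in 4 of 6, while the fibroblast sum was lower in 5 of 6. The part of these measures in the irradiation values was not tested.

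**Figure D2:**
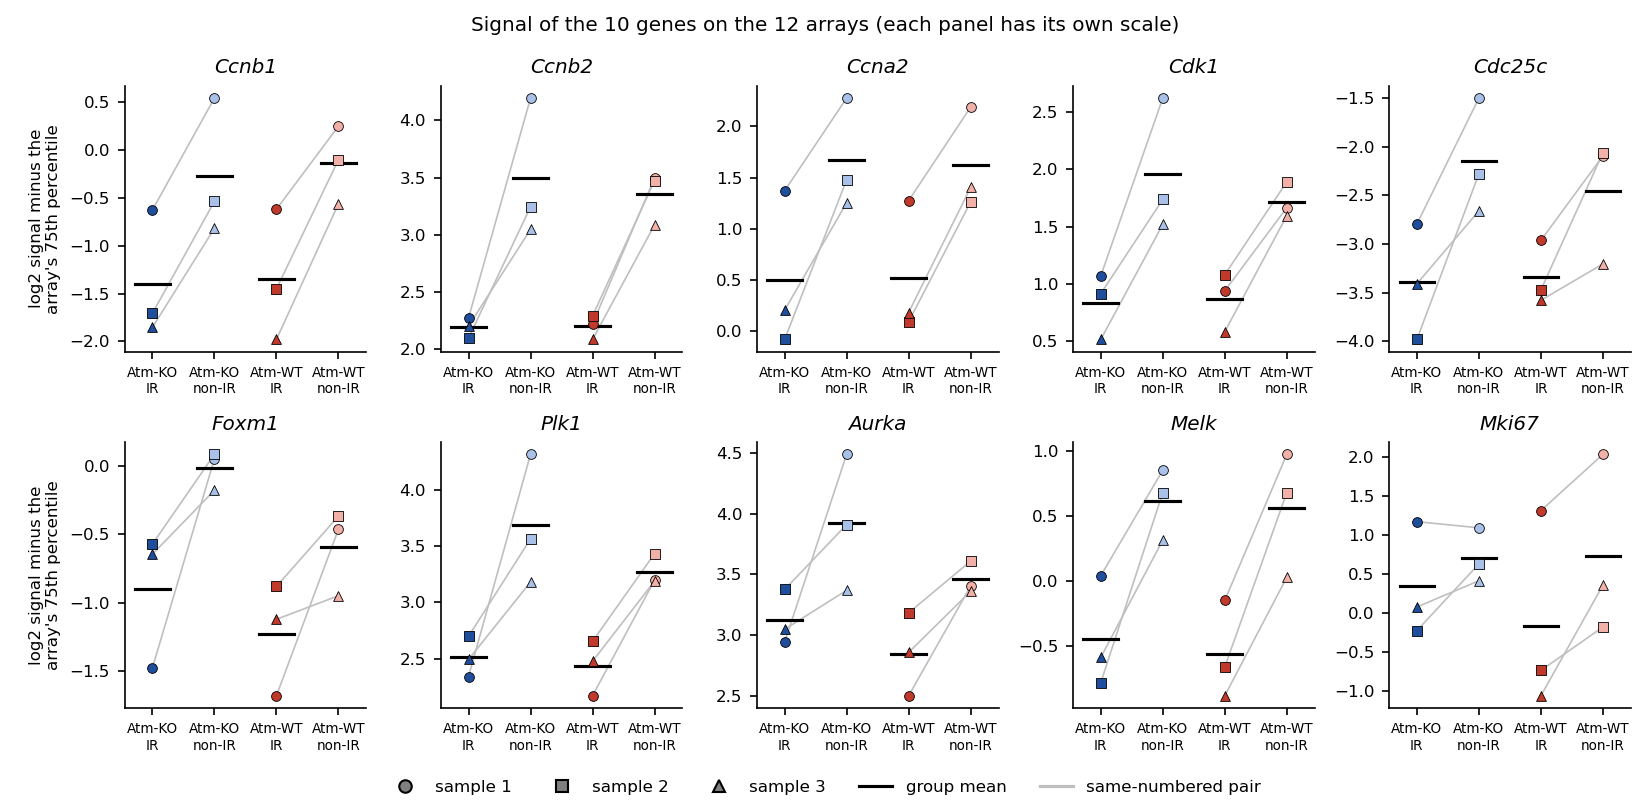
log2 processed signal minus the array's 75th percentile (vertical axis, scaled per panel) for each of the 10 genes in the 4 groups; symbols are samples 1 to 3, black bars group means, and grey lines join same-numbered samples. The lines run upward to the nonirradiated sample in every panel, with Mki67 in Atm-KO sample 1 as the exception.

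Cyclin values, like all levels here, are log2 signal over the 75th percentile of the array, listed for samples 1, 2 and 3 in turn, and levels of different probes are not comparable. Ccnb1 read -0.63, -1.71 and -1.85 in irradiated Atm-KO cells, against 0.54, -0.54 and -0.82 in nonirradiated Atm-KO cells. It read -0.62, -1.45 and -1.98 in irradiated Atm-WT cells, against 0.25, -0.10 and -0.56 in nonirradiated Atm-WT cells. Sample 1 was the highest of every group, which made the Atm-KO groups overlap, while each pair differed by -1.03 to -1.17 in Atm-KO and by -0.87 to -1.42 in Atm-WT cells. Without pairs the difference was -1.12 ± 0.460 (SE, adjusted p = 0.565) in Atm-KO and -1.21 ± 0.460 (adjusted p = 0.586) in Atm-WT cells. With pairs as a block Ccnb1 fell by 1.12 (adjusted p = 0.0234) and by 1.21 (adjusted p = 0.012), which is 2.18-fold and 2.31-fold lower. The 2 dimmer Ccnb1 probes gave -0.64 and -0.69 in Atm-KO cells and did not pass there with pairs (adjusted p = 0.115 and 0.117), while in Atm-WT cells they gave -1.24 and -1.22 and passed (adjusted p = 0.0107 and 0.0169).

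Ccnb2 had the tightest irradiated values of the set. It read 2.27, 2.10 and 2.20 in irradiated Atm-KO cells, against 4.20, 3.24 and 3.05 in nonirradiated Atm-KO cells. It read 2.22, 2.29 and 2.09 in irradiated Atm-WT cells, against 3.50, 3.47 and 3.09 in nonirradiated Atm-WT cells. No irradiated value of either genotype reached a nonirradiated one, and the irradiated means of 2.19 ± 0.0883 and 2.20 ± 0.105 (SD, n = 3 each) differed between the genotypes by less than their spread. With pairs Ccnb2 fell by 1.30 ± 0.226 in Atm-KO cells (2.47-fold, adjusted p = 0.0276) and by 1.15 ± 0.226 in Atm-WT cells (2.22-fold, adjusted p = 0.0348). Without pairs the adjusted p was 0.179 and 0.194.

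Ccna2 read 1.37, -0.08 and 0.20 in irradiated Atm-KO cells, against 2.28, 1.48 and 1.26 in nonirradiated Atm-KO cells. It read 1.28, 0.09 and 0.18 in irradiated Atm-WT cells, against 2.19, 1.26 and 1.40 in nonirradiated Atm-WT cells. Irradiated sample 1 of either genotype lay above one of the nonirradiated samples of its genotype, so the groups overlapped although every pair went down by 0.91 or more. With pairs Ccna2 fell by 1.17 ± 0.194 in Atm-KO cells (adjusted p = 0.0238) and by 1.10 ± 0.194 in Atm-WT cells (adjusted p = 0.0219), against 0.534 and 0.673 without pairs.

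Cdk1, the kinase partner of these cyclins, read 1.07, 0.92 and 0.52 in irradiated Atm-KO cells, against 2.62, 1.74 and 1.52 in nonirradiated Atm-KO cells. It read 0.94, 1.08 and 0.58 in irradiated Atm-WT cells, against 1.67, 1.89 and 1.60 in nonirradiated Atm-WT cells. The groups did not overlap in either genotype. With pairs Cdk1 fell by 1.13 ± 0.197 in Atm-KO cells (2.18-fold, adjusted p = 0.0283), while its difference of -0.85 ± 0.197 in Atm-WT cells had an adjusted p of 0.0703. Without pairs these were 0.278 and 0.534. The second Cdk1 probe was well above background on none of the 12 arrays and was not tested.

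Cdc25c, the phosphatase that activates Cdk1, had a dim probe. It read -2.79, -3.98 and -3.41 in irradiated Atm-KO cells, against -1.50, -2.28 and -2.66 in nonirradiated Atm-KO cells. It read -2.96, -3.47 and -3.58 in irradiated Atm-WT cells, against -2.09, -2.06 and -3.20 in nonirradiated Atm-WT cells. Only the Atm-WT groups overlapped, where nonirradiated sample 3 lay below irradiated sample 1. With pairs it fell by 1.25 ± 0.252 in Atm-KO cells (adjusted p = 0.0445), and in Atm-WT cells the difference was -0.88 ± 0.252 (adjusted p = 0.128). Its other, dimmer probe gave -1.21 (adjusted p = 0.0271) in Atm-KO cells with pairs. In Atm-WT cells that probe gave -0.98 (adjusted p = 0.0491 with pairs), but it was not well above background in irradiated sample 3.

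Plk1, the Polo-like kinase, read 2.34, 2.70 and 2.49 in irradiated Atm-KO cells, against 4.32, 3.57 and 3.18 in nonirradiated Atm-KO cells. It read 2.17, 2.65 and 2.48 in irradiated Atm-WT cells, against 3.20, 3.43 and 3.19 in nonirradiated Atm-WT cells. The groups did not overlap in either genotype, yet the pair differences were uneven in Atm-KO cells, at -1.98, -0.87 and -0.69. The group difference was -1.18 ± 0.254 in Atm-KO cells with an adjusted p of 0.0539 with pairs, and -0.84 ± 0.254 in Atm-WT cells with 0.147. Without pairs these p-values were 0.241 and 0.506.

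Aurka, the Aurora A kinase of the spindle poles, read 2.94, 3.38 and 3.05 in irradiated Atm-KO cells, against 4.49, 3.91 and 3.37 in nonirradiated Atm-KO cells. It read 2.50, 3.18 and 2.86 in irradiated Atm-WT cells, against 3.40, 3.61 and 3.36 in nonirradiated Atm-WT cells. The Atm-KO groups overlapped narrowly, with irradiated sample 2 just above nonirradiated sample 3, and the Atm-WT groups did not. Its difference was -0.80 ± 0.251 in Atm-KO cells (adjusted p = 0.135 with pairs) and -0.61 ± 0.251 in Atm-WT cells (adjusted p = 0.286).

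Foxm1, the transcription factor of the set, read -1.48, -0.57 and -0.65 in irradiated Atm-KO cells, against 0.05, 0.08 and -0.18 in nonirradiated Atm-KO cells. It read -1.68, -0.88 and -1.12 in irradiated Atm-WT cells, against -0.46, -0.37 and -0.95 in nonirradiated Atm-WT cells. Its lowest values were in irradiated sample 1 of either genotype, the sample in which Ccnb1, Ccna2 and Mki67 were highest among the irradiated. The Atm-KO groups did not overlap and the Atm-WT groups did, and the smallest pair differences were -0.47 in Atm-KO pair 3 and -0.17 in Atm-WT pair 3. The group differences of -0.88 ± 0.267 in Atm-KO and -0.63 ± 0.267 in Atm-WT cells did not pass with pairs (adjusted p = 0.124 and 0.297).

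Melk read 0.04, -0.79 and -0.59 in irradiated Atm-KO cells, against 0.85, 0.68 and 0.31 in nonirradiated Atm-KO cells. It read -0.15, -0.66 and -0.89 in irradiated Atm-WT cells, against 0.97, 0.68 and 0.03 in nonirradiated Atm-WT cells. The groups did not overlap in either genotype. With pairs Melk fell by 1.06 ± 0.198 in Atm-KO cells (adjusted p = 0.0331) and by 1.13 ± 0.198 in Atm-WT cells (adjusted p = 0.022), against 0.354 and 0.314 without.

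Mki67, the proliferation marker, had the widest spread of the set within the Atm-WT groups. It read 1.17, -0.23 and 0.08 in irradiated Atm-KO cells, against 1.09, 0.63 and 0.41 in nonirradiated Atm-KO cells. It read 1.31, -0.74 and -1.06 in irradiated Atm-WT cells, against 2.03, -0.18 and 0.36 in nonirradiated Atm-WT cells. Irradiated sample 1 of either genotype lay above nonirradiated samples 2 and 3 of both, and Atm-KO pair 1 was the only pair of the set with the higher value in the irradiated sample, by 0.08. The difference was -0.37 ± 0.241 in Atm-KO cells (adjusted p = 0.412 with pairs) and -0.90 ± 0.241 in Atm-WT cells (adjusted p = 0.108). The dimmer Mki67 probe gave -0.24 in Atm-KO and -0.81 in Atm-WT cells (adjusted p = 0.627 and 0.193 with pairs). In Atm-KO pair 1 that probe was higher in the irradiated sample by 0.29.

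**Figure D3:**
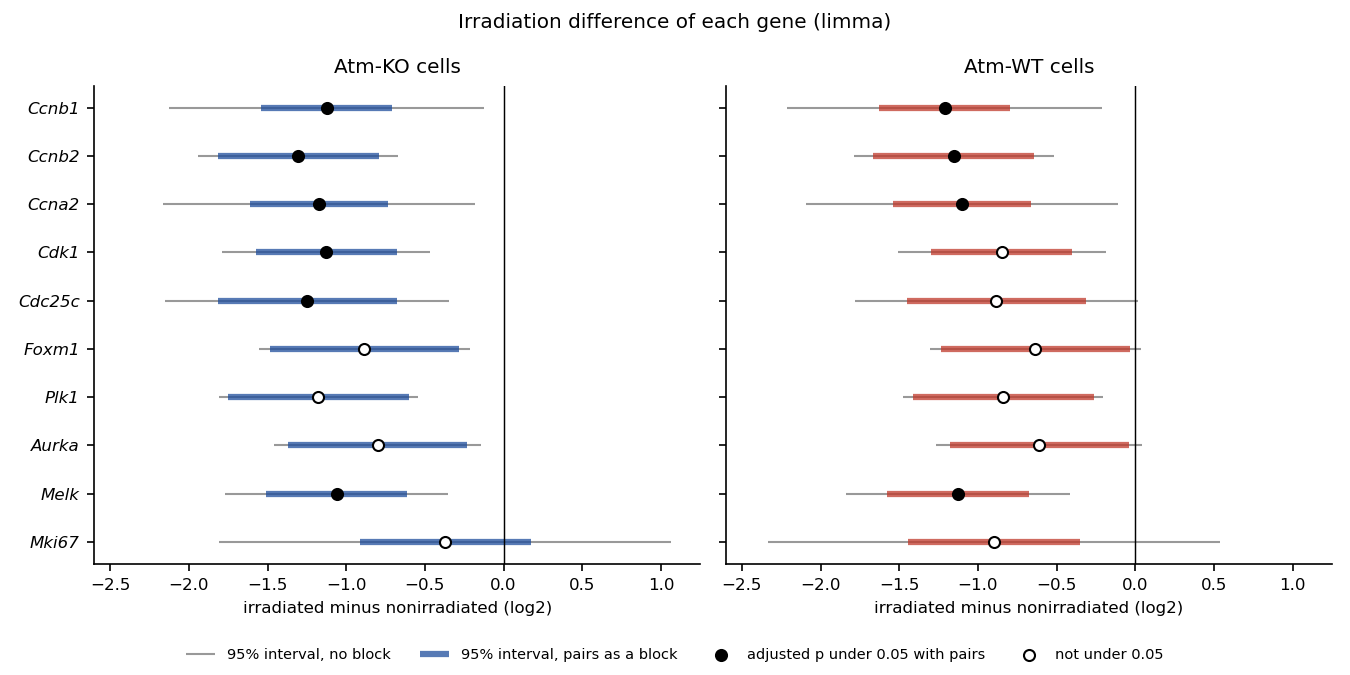
Irradiated minus nonirradiated log2 difference of each gene (horizontal axis) in Atm-KO cells (left) and Atm-WT cells (right), with 95% intervals from limma without a block (grey) and with pairs as a block (coloured). Filled points mark an adjusted p under 0.05 with pairs, 6 in Atm-KO and 4 in Atm-WT cells; every point lies below 0.

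The difference between the 2 irradiation effects, Atm-KO minus Atm-WT, asks whether the response of these genes differed with the genotype. None of the 10 genes passed, with or without pairs, and 0 had an unadjusted p under 0.05 without pairs, where the test without pairs called 0.00543% of all features lower and 0% higher, and the test with pairs 0.0217% and 0%. The differences ran from -0.36 for Cdc25c (95% interval -1.64 to 0.91) to 0.53 for Mki67 (-1.50 to 2.56), with a median of -0.17 beside -0.058 over all features. Plk1 gave -0.34 (-1.23 to 0.56). With pairs the intervals were narrower, at -1.17 to 0.44 for Cdc25c, -0.24 to 1.30 for Mki67, -1.15 to 0.48 for Plk1 and -0.69 to 0.55 for Ccna2, and all 10 included 0. A like response of the 2 genotypes is not shown by this. These intervals are for the brightest probes. The 2 dimmer Ccnb1 probes gave 0.595 ± 0.261 and 0.536 ± 0.284 with pairs (SE, adjusted p = 0.971 each), against 0.087 for the brightest. The direction for Mki67 turned to -0.12 without nonirradiated Atm-WT sample 1, and that for Cdc25c to 0.010 without nonirradiated Atm-WT sample 3 and to 0.35 under normexp correction. Across the 26 alternatives run, 9 of the 10 genes changed sign at least once in this comparison.

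Atm-KO and Atm-WT cells that shared a treatment were compared to ask whether the genotype alone set the level of these genes. For each of the 10 genes both nonirradiated means lay above both irradiated means, and no genotype difference passed in either treatment, 0 having an unadjusted p under 0.05 without pairs. The tests without pairs called 0.0597% of all features higher and 0.147% lower in irradiated Atm-KO cells, and 0.391% higher and 0.467% lower in nonirradiated ones. In irradiated cells the median Atm-KO minus Atm-WT difference was 0.034 over the 10 genes, the largest being 0.50 ± 0.660 for Mki67. Foxm1 gave 0.33 ± 0.309 and Aurka 0.27 ± 0.301 (adjusted p = 1 each). The 2 dimmer Ccnb1 probes gave 0.555 and 0.503 there, against -0.046 for the brightest. Their adjusted p was 0.423 and 0.572 in limma with same-numbered samples as a block. In nonirradiated cells the median was 0.19. Foxm1 there read higher in every Atm-KO sample than in any Atm-WT sample, a difference of 0.58 ± 0.309 (adjusted p = 0.801). Groups that did not overlap in that direction made up 8.29% of all features.

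Aurka at 0.46 ± 0.301 (adjusted p = 0.940) and Plk1 at 0.41 ± 0.291 (adjusted p = 0.984) rested on sample 1: set against Atm-WT sample 1, nonirradiated Atm-KO sample 1 was higher by 1.08 for Aurka and by 1.12 for Plk1. The differences for samples 2 and 3 were 0.30 and 0.0077 for Aurka and 0.13 and -0.0083 for Plk1. Slide 2 was the only slide with both genotypes, with 1 array per group. There Atm-KO sample 1 minus Atm-WT sample 3 had a median over the 10 genes of 1.06 without irradiation (range 0.73 to 1.70). With irradiation it was 0.63 (range -0.35 to 2.23). The median level of all features on these arrays was -0.48 against -0.46 without and -0.46 against -0.51 with irradiation. With slide as a fixed block the medians over the 10 genes were 0.76 in irradiated and 0.87 in nonirradiated cells. Over all features they were -0.151 and -0.0608. In that fit those 4 arrays set the genotype difference averaged over treatments, and its split by treatment draws on all 12 arrays. The macrophage and blood markers also moved with the genotype. Their summed signal was 0.61 to 0.75 times the 75th percentile in irradiated Atm-KO and 0.54 to 0.82 in nonirradiated Atm-KO cells, against 2.51 to 3.99 in irradiated and 3.27 to 5.71 in nonirradiated Atm-WT cells. Of these 9 genes, 4 (Csf1r, Cd14, Lyz2 and C1qb) were well above background on all 12 arrays, Cd53 on 9, C1qa and C1qc on 8, Adgre1 on 7 and Ptprc on 2. Atm-KO sample 1 stood apart in the other lists. Its epithelial sums given above exceeded those of all other arrays. Its skeletal muscle sum was 9.67 with and 11.7 without irradiation, against 1.53 to 2.39 in the other 4 Atm-KO samples and 2.83 to 8.71 in the 6 Atm-WT samples. Its endothelial sum was 1.20 with and 0.52 without irradiation, against 0.18 to 0.30 in the other 4 Atm-KO samples and 0.54 to 0.65 in Atm-WT samples. Among the epithelial genes Epcam was well above background on 6 arrays and the other 5 genes on 12. Acta1 and Des of the muscle list and Emcn and Kdr of the endothelial list were so on 12, Myod1 on 7, Myog on 6, Tek on 11 and Cdh5 on 8, while Ckm and Pecam1 were on 0. The part of these markers in the genotype values was not tested.

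The members also varied with sample number. Centred on each gene's mean over the 12 arrays, the median of the 10 genes averaged -0.47 ± 0.288 in irradiated Atm-KO and 0.64 ± 0.545 in nonirradiated Atm-KO cells. It averaged -0.54 ± 0.229 in irradiated and 0.44 ± 0.301 in nonirradiated Atm-WT cells (SD, n = 3 each). Nonirradiated Atm-KO sample 1 had the highest value of all 12 arrays for 7 of the 10 genes, and its centred median of 1.24 stood above 0.49 and 0.18 in the other two nonirradiated Atm-KO samples. Sample 1 exceeded the mean of samples 2 and 3 by a median of 0.54 in irradiated Atm-KO, 0.93 in nonirradiated Atm-KO, 0.34 in irradiated Atm-WT and 0.38 in nonirradiated Atm-WT cells. The same quantity over all features was -0.22, 0.076, -0.36 and -0.18 in that order of groups. This was uneven within the set: for Mki67 the excess was 1.24 in irradiated Atm-KO and 2.21 in irradiated Atm-WT cells, while Foxm1 was lower in sample 1 by 0.87 and 0.68 there.

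Within pairs, the median irradiation difference of the 10 genes was -1.41, -1.01 and -0.80 in Atm-KO pairs 1, 2 and 3, and -0.91, -0.99 and -0.96 in Atm-WT pairs 1, 2 and 3. Each pair lies on 1 slide, so these are also within-slide values. All 6 were negative.

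**Figure D4:**
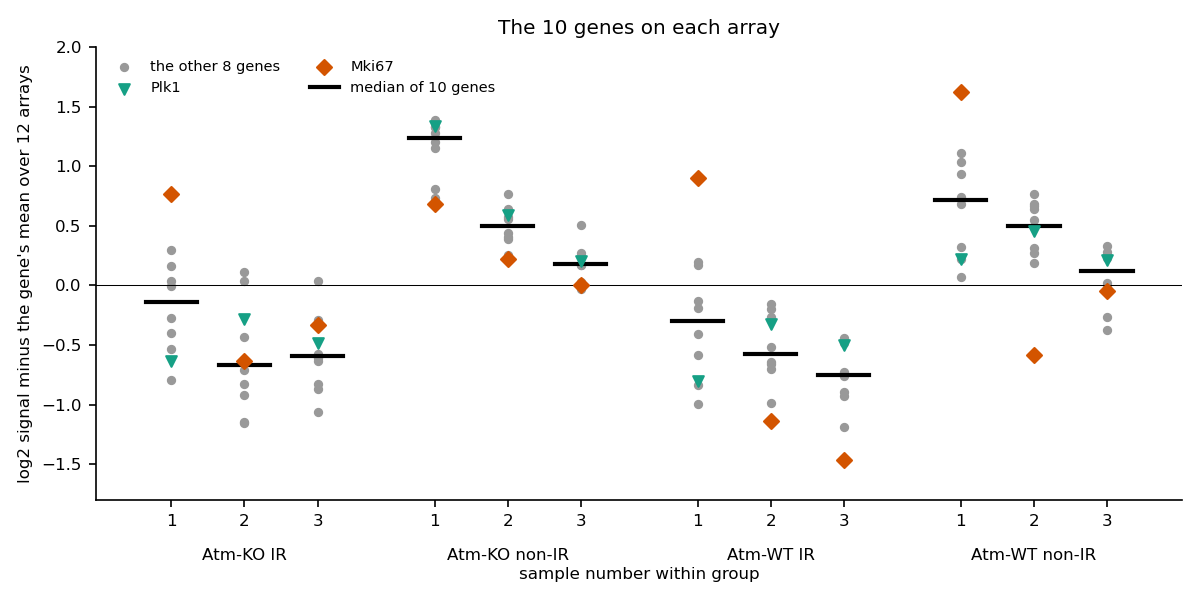
log2 signal of each gene minus its own mean over the 12 arrays (vertical axis), by sample and group; grey points are 8 genes, coloured symbols Plk1 and Mki67, black bars the median of the 10 genes. The medians are below 0 on all 6 irradiated arrays and above 0 on all 6 nonirradiated ones, and Mki67 departs from the others on several arrays.

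Likeness was measured as the root mean square difference, over the 12 arrays, between a gene's centred log2 profile and the median profile of the 10 members, among 12805 named genes tested. Bub1b, the spindle checkpoint kinase BubR1, was nearest at 0.104. The exonuclease gene Exo1 (0.135), Lrr1 (0.161), the kinetochore gene Knstrn (0.162) and the centromere gene Cenpn (0.169) were the next genes outside the set. Of the members, Ccnb2 lay at 0.166, Melk at 0.183, Cdk1 at 0.189 and Cdc25c at 0.226, while Foxm1 lay at 0.503 and Mki67 at 0.683, rank 4848 among the named genes. The members helped to make the profile they are measured against, so their ranks are a description of how they vary among themselves.

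Beside the members, 5 lists of pathway genes were read, and none of their genes passed in either genotype without pairs. With pairs 10 of their genes passed in Atm-KO and 6 in Atm-WT cells, beside 377 and 417 of all features. With 1 block per sample number across genotypes, 1 of those 10 (Bub1b, adjusted p = 0.0425) and 3 of those 6 (Pbk, E2f7 and Cdkn1a) passed. In that fit 43 and 230 of all features passed. With pairs but without sample 1, 0 and 1 (Pbk) did, beside 0 and 109 of all features. Of 11 measured other mitotic kinases and partners, 4 fell in irradiated Atm-KO and 3 in irradiated Atm-WT cells with pairs, and the list medians were -0.80 in both. Bub1b fell by 1.27 (adjusted p = 0.0174) and by 0.93 (adjusted p = 0.0323). Aurkb, the Aurora B kinase of the centromere, fell by 1.21 (adjusted p = 0.0283) and by 0.99 (adjusted p = 0.0488), and Pbk, a mitotic kinase, by 0.96 (adjusted p = 0.0309) and by 1.18 (adjusted p = 0.0101). Birc5 (survivin), a partner of Aurkb, fell by 1.47 in Atm-KO cells (adjusted p = 0.0224), and its Atm-WT difference was -1.05 (adjusted p = 0.0609).

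The anaphase-promoting complex ends mitosis by marking cyclin B for destruction. Of 8 genes linked to it, not all of them its regulators, 2 fell in Atm-KO and 0 in Atm-WT cells with pairs. The list medians were -0.85 and -0.80, and 4 of the genes had an unadjusted p under 0.05 without pairs in either genotype. Pttg1 (securin) fell by 1.04 in Atm-KO cells (adjusted p = 0.0382), as did Espl1 (separase) by 1.41 (adjusted p = 0.0394). Cdc20, the activator of the complex, gave -0.89 in Atm-KO (adjusted p = 0.122) and -0.74 in Atm-WT cells (adjusted p = 0.219). In Atm-WT cells Pttg1 gave -0.89 (adjusted p = 0.0653) and the ubiquitin-conjugating enzyme Ube2c -0.96 (adjusted p = 0.0992).

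Of 14 measured Cdk1 partners and activators, 2 fell in Atm-KO and 1 in Atm-WT cells with pairs, with medians of -0.45 and -0.36. Cks2, a small subunit of Cdk complexes, fell by 1.04 (adjusted p = 0.0364) and by 1.19 (adjusted p = 0.0182). Ccna1 (cyclin A1) fell by 1.70 in Atm-KO cells (adjusted p = 0.0382) and gave -0.96 in Atm-WT cells (adjusted p = 0.195). Its probe was dim, and in irradiated Atm-WT sample 2 it read -5.96 and was not well above background. Cdc25b, a phosphatase related to Cdc25c, gave -0.95 (adjusted p = 0.0788) and -0.69 (adjusted p = 0.194).

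Of 9 inhibitors of mitotic entry on the array, none passed as lower with pairs. Cdkn1a alone passed as higher, in Atm-WT cells, where 1.64% of all features did. With pairs in limma, Chek1 gave -0.78 in Atm-KO (adjusted p = 0.113) and -0.84 in Atm-WT cells (adjusted p = 0.108). Gadd45g gave 0.71 in Atm-WT cells (adjusted p = 0.101), and Gadd45a gave 0.44 in Atm-KO cells (adjusted p = 0.196). Cdkn1a read 4.88, 5.86 and 5.48 in irradiated Atm-KO cells, against 4.70, 5.15 and 4.59 in nonirradiated Atm-KO cells, a difference of 0.59 (adjusted p = 0.145). It read 4.95, 5.70 and 5.42 in irradiated Atm-WT cells, against 4.06, 4.66 and 4.40 in nonirradiated Atm-WT cells, where it rose by 0.98 (adjusted p = 0.0354). Every pair was higher with irradiation, and the Atm-WT groups did not overlap. Whether the 2 increases differ was tested by the same interaction term, which called no gene of this list. Wee1, the kinase that phosphorylates Cdk1 to hold it inactive, gave -0.49 (adjusted p = 0.265) and -0.20 (adjusted p = 0.792). The median of the 9 was 0.012 in Atm-KO and -0.11 in Atm-WT cells.

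Of 18 cell cycle transcription regulators, 2 fell in Atm-KO and 1 in Atm-WT cells with pairs, with medians of -0.024 and -0.25. E2f7, a repressor of the E2F family, fell by 1.003 (adjusted p = 0.0312) and by 0.92 (adjusted p = 0.0369). Mybl2 (B-MYB), which works with MuvB, fell by 1.19 in Atm-KO cells (adjusted p = 0.048) and gave -0.75 in Atm-WT cells (adjusted p = 0.18).

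**Figure D5:**
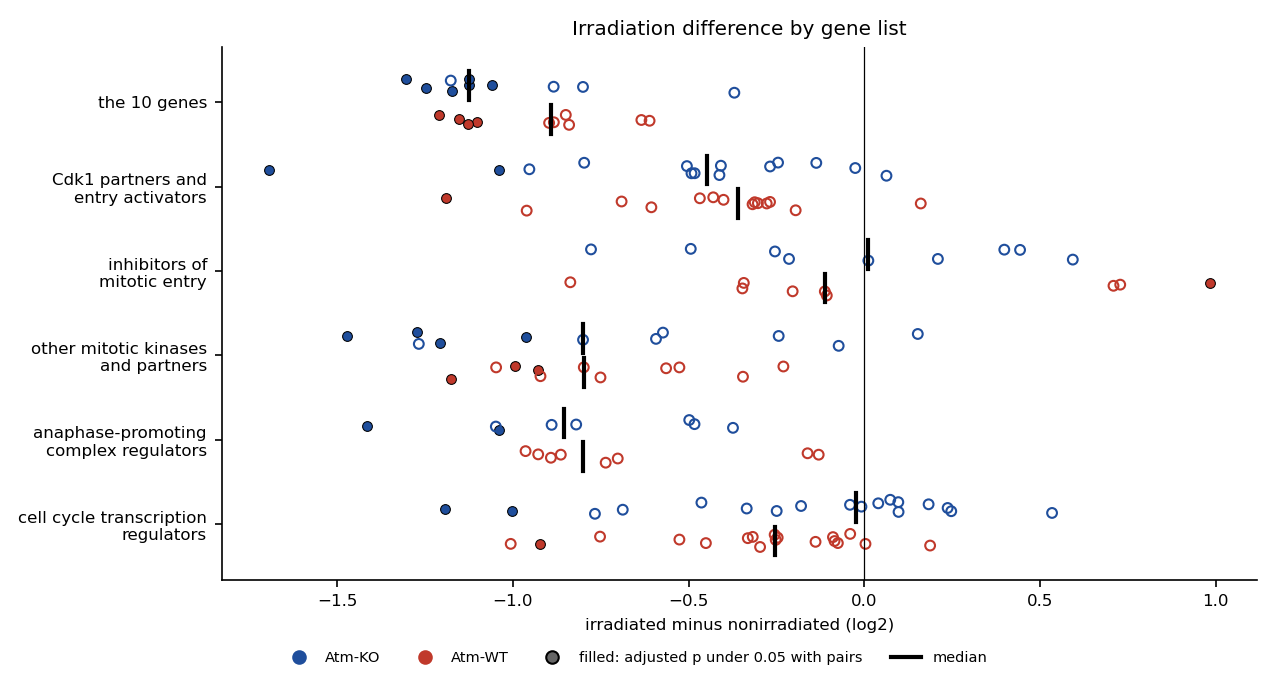
Irradiated minus nonirradiated log2 difference (horizontal axis) of the genes of each list, Atm-KO above Atm-WT within a list; filled points passed at an adjusted p under 0.05 with pairs and bars are medians. The 10 genes and the lists of mitotic kinases and anaphase regulators have medians from -1.13 to -0.80 in the 2 genotypes, while Cdkn1a is the filled point above 0.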

How the data were processed

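RNA of 12 samples of mouse embryonic fibroblasts was read on single-colour Agilent whole mouse genome arrays. The deposited spot intensity values came, per the file headers, from Feature Extraction 10.7.1.1 (build mm9), background-subtracted and detrended within each array; the submitters' processing notes name version 11.0, and the difference was not resolved. A log2 matrix that the authors deposited matched log2 processed signal after the same scaling and centring on each probe's median with r of at least 0.9975 on every array over 41174 of its 41250 probes; it was an alternative only. Per the labels, groups and sample numbers come from the sample titles.

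Control spots were left out. Outlier-flagged spots were left out where the probe also had an unflagged spot, and kept where all its spots were flagged. Each array's 75th percentile, taken over all spots but controls, was subtracted from its log2 processed signal. Spots of a probe were averaged, and the probe with the highest mean stood for a gene. Probes were named through RefSeq accessions (25097 of 41174). Testing was kept to the 18430 features well above background in every sample of some group. A group-means model over 12 arrays was fitted with limma 3.58.1 in R 4.3.3 (data.table package, version 1.17.8), with eBayes, 8 residual and 4.13 prior degrees of freedom, and Benjamini-Hochberg adjustment over all features at 0.05. The fit was tested on simulated data. Alternatives were normexp correction (on median spot signal with an offset of 50, as the files used hold no mean signal), quantile normalization, the filter on dim probes, slide or pair as a block, the mean of a gene's probes, and each sample left out; the omission of each pair, each probe as a feature of its own and the paired fits under other normalizations were chosen after seeing the data.

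Pairing was checked by correlating the deviations of samples with the same number from the means of their groups. Deviations within a group cancel out, so values for same and for unlike numbers are not independent. For irradiation r was 0.269 to 0.510 in Atm-KO and 0.481 to 0.852 in Atm-WT cells, against -0.527 to 0.335 and -0.696 to 0.302 between unlike numbers, so paired values are given beside the results they change; for genotype it was 0.218 to 0.628 in irradiated and -0.217 to 0.179 in nonirradiated cells. The number of arrays limits the precision. Genes outside the set were named by a rule. It took Atm and Cdkn1a, 6 fixed regulators where measured and the 5 genes of most similar profile. It also took up to 3 genes per list with the smallest paired p. The members and lists were chosen with earlier results of these data known.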

Additional observations from a re-analysis of the deposited data

How the results depend on the processing

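The irradiation difference of each of the 10 genes kept its negative sign in both genotypes under all 30 alternatives, with medians over the 10 genes of -1.36 to -0.86 in Atm-KO and -1.15 to -0.77 in Atm-WT cells. Whether genes passed depended on the pairing. With the replicate block 6 passed in Atm-KO and 4 in Atm-WT cells, beside 377 and 417 of all 18430 features. Likewise 6 and 4 passed with quantile normalization in that fit, beside 276 and 348 features. With 1 block per sample number across genotypes 1 (Ccna2) and 3 (Ccnb1, Ccna2 and Melk) passed, beside 43 and 230 features. In the paired fit without sample 1, 0 and 1 (Ccnb1) passed, beside 0 and 109 features. Without an Atm-KO pair 0 to 2 members did, beside 19 to 340 features. Without the block, leaving out samples left 0 to 1 in Atm-WT cells, the 1 being Ccna2 without sample 1 of every group (adjusted p = 0.0354), and 0 in Atm-KO cells. The interaction of Mki67 ran from -0.12 to 1.26 and that of Cdc25c from -0.66 to 0.010 as samples were left out, and Cdc25c gave 0.35 under normexp, with or without the block. The genotype medians became 0.76 in irradiated and 0.87 in nonirradiated cells with slide as a fixed block, which rests on the 4 arrays of slide 2; the replicate block called no member in the interaction or genotype comparisons. The cause of these changes was not tested.

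Over all features, calls without pairs numbered 1 for irradiation in Atm-KO cells (0 to 377 across alternatives), 82 in Atm-WT cells (44 to 417), 1 for the interaction (0 to 9), 38 for genotype in irradiated (2 to 1044) and 158 in nonirradiated cells (34 to 1580). The widest genotype counts came without sample 1 of every group.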
